A study of Eutrema with 12 samples.

Results

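SPS is the array's name for sucrose phosphate synthase, the enzyme that joins UDP-glucose and fructose 6-phosphate into sucrose 6-phosphate in the cytosol of leaf cells. A phosphatase then releases sucrose, the sugar that leaves export through the phloem and that many plants also store under cold or dry conditions. The enzyme is known to be regulated by light, by phosphorylation and by glucose 6-phosphate as well as through its transcript, so a transcript ratio is not an activity. Plants carry several SPS genes, and the name on the array does not say which of them was spotted. All spots with the name SPS were taken, 9 of the 13449 cDNA spots on each array and 1 of 4279 cDNA identifiers, 28 of which are gene names. The 9 spots lie in 3 places of 3 adjacent spots, called positions 1, 2 and 3 here. Positions 1 and 2 share a spotting block, and position 3 lies in another block. Over 12 arrays this gives 108 spot readings in each channel.

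The field plants were 6 individual Yukon plants of *Thellungiella salsuginea*, a salt-tolerant relative of Arabidopsis, of which 3 were harvested in 2003 and 3 in 2005 from 1 natural site on saline soil, after little rain in the former year and ample rain in the latter. Their cauline leaves, the leaves borne on the flowering stem, were compared with those of untreated Yukon plants aged 12 weeks that grew in a cabinet under a long day with cool nights. Each plant of a year has a letter, A, B or C, and the last plant of 2005, C in its sample records, is D in the design description. Each plant was hybridized against cabinet RNA on 2 arrays, the field RNA carrying Cy5 on one and Cy3 on the other, and both arrays count as 1 replicate. The sample records say that mRNA was amplified before labelling for the field plants and not for the cabinet plants, while the study's methods describe amplification without this distinction. If the records hold, amplification and growth in the field cannot be told apart. Whether the arrays of different field plants had the same cabinet RNA is not stated. The years also differ in the recorded spot diameter, 160 microns in 2003 against 135 in 2005, in the spot spacing, 225 against 200 microns, and in the days of the scanner readings, 4 days against 2 others. These cannot be told apart from the harvest year. No gene-named cDNA marks cauline leaf, so the tissue label was not checked against markers. In whole leaves, fewer cells with a transcript and less transcript per cell cannot be told apart.

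SPS read higher in the field leaves than in cabinet leaves, with the larger ratio in 2005. Over all 9 spots the mean was 2.26-fold in 2005 and 1.16-fold in 2003. In 2003, however, only the 3 spots of position 3 were brighter than the floor set by unnamed spots, and there the means were 2.15-fold in 2005 and 1.39-fold in 2003. In 2005 the cabinet channel was above that floor on 0 of 6 arrays at position 1 and on 3 of 6 at position 2. The average over 9 spots is thus no exact fold in either year. SPS was selected on these measured ratios, so they are given as a description, with no test. The measure is the log2 ratio of field over cabinet, after background correction and normalization within the array, averaged over the 9 spots and the 2 arrays of a plant.

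In 2003 the SPS log2 ratio was 0.15 in plant A, 0.44 in plant B and 0.07 in plant C. The mean was 0.22 ± 0.19 (SD, n = 3 plants). In 2005 the log2 ratio was 1.24 in plant A, 1.30 in plant B and 0.99 in plant C, with a mean of 1.18 ± 0.16 (SD, n = 3 plants). The years did not overlap, since the lowest plant of 2005 lay above the highest plant of 2003. As fold changes over the cabinet, the plants lay at 1.05 to 1.35 in 2003 and at 1.99 to 2.46 in 2005. The difference between the year means was 0.96 on the log2 scale over all spots, and 0.63, a 1.55-fold higher ratio in 2005, at position 3 alone. Without plant B, the mean of 2003 was 0.11.

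**Figure D1:**
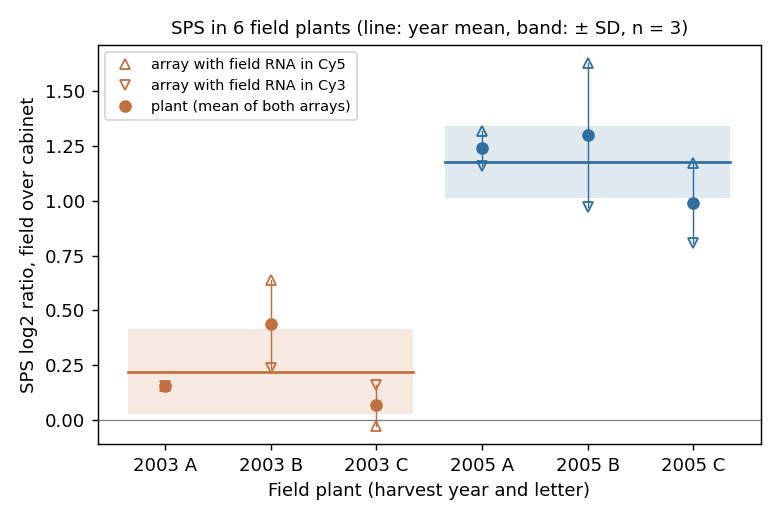
SPS log2 ratio of field over cabinet (y axis) for each field plant (x axis), with filled points for plants and open triangles for the 2 arrays of a plant, year means as lines and ± SD (n = 3) as bands. The plants of 2005 sit between 0.99 and 1.30, all above the plants of 2003, which sit between 0.07 and 0.44.

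Many cDNAs of the array shared parts of this pattern. At least 1.5-fold above the cabinet in 3 of 3 plants stood 12.7% of the 4279 cDNAs in 2005, SPS among them, and 7.62% in 2003, without SPS. For 16.8% of cDNAs the lowest ratio of 2005 lay above the highest of 2003, as it did for SPS. By its mean ratio SPS had 302 cDNAs above it in 2005, which is 7.06% of the array, against 1368 cDNAs, or 32%, in 2003. In the 2005 minus 2003 difference 327 cDNAs, 7.64%, ranked higher. These ranks take all 9 SPS spots, of which only those of position 3 were above the floor in 2003. At position 3 alone the 2003 mean was 0.47 and the difference 0.63, and no rank is given for it. The plants of a year were closer together for SPS than for the median cDNA, whose SD was 0.38 in 2003 and 0.24 in 2005, although 21% and 31.7% of cDNAs had a still smaller SD than SPS. These SDs are of unlike averages, since SPS has 9 spots in 3 positions and only 182 of the 4279 cDNAs have more than 1 position.

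The positions of SPS were not alike in brightness. Position 3 was the bright one. In its field channel the 6 arrays of 2003 read 1132 to 7482 intensity units, with a median of 3588, and those of 2005 read 3080 to 7096, with a median of 5219. In its cabinet channel the readings were 1782 to 8270 (median 2784) in 2003 and 1410 to 5804 (median 2596) in 2005. These are scanner intensities as deposited, without background subtraction, so they show detection and give no fold change. Position 1 was dim, with field readings of 254 to 564 in 2003 and 397 to 1168 in 2005. Its cabinet readings were 230 to 561 in 2003 and 249 to 839 in 2005. Position 2 read 260 to 588 in the field channel in 2003 and 645 to 2951 in 2005, and 237 to 539 and 394 to 1705 in the cabinet channel. No SPS spot reached the maximum of the scanner.

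The 87 unnamed spots, of unknown content, served as a floor for brightness. On each array the 90th percentile of their signal over local background was compared with that of SPS. Position 3 lay above this percentile in both channels on all 12 arrays, at 12.2 to 50.3 times the background in the field channel and 8.72 to 44.7 times in the cabinet channel. In 2003 positions 1 and 2 lay above it on 0 of 6 arrays in either channel, at 2.56 to 5.58 times the background in the field channel. In 2005 position 2 lay above it on 6 of 6 arrays in the field channel and 3 of 6 in the cabinet channel, and position 1 on 3 of 6 and 0 of 6. So in 2003 the places of 6 of the 9 SPS spots read within the range of the unnamed spots. Of the 4483 cDNA positions on the array, 3.39% were as dim as position 1 or dimmer, 7.96% as position 2 and 53.3% as position 3. Among 182 cDNAs with more than 1 position, the brightness of SPS differed 9.5-fold between its brightest and dimmest position, a log2 range of 3.25 against a median of 1.40, and 26 of them had a larger range.

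**Figure D2:**
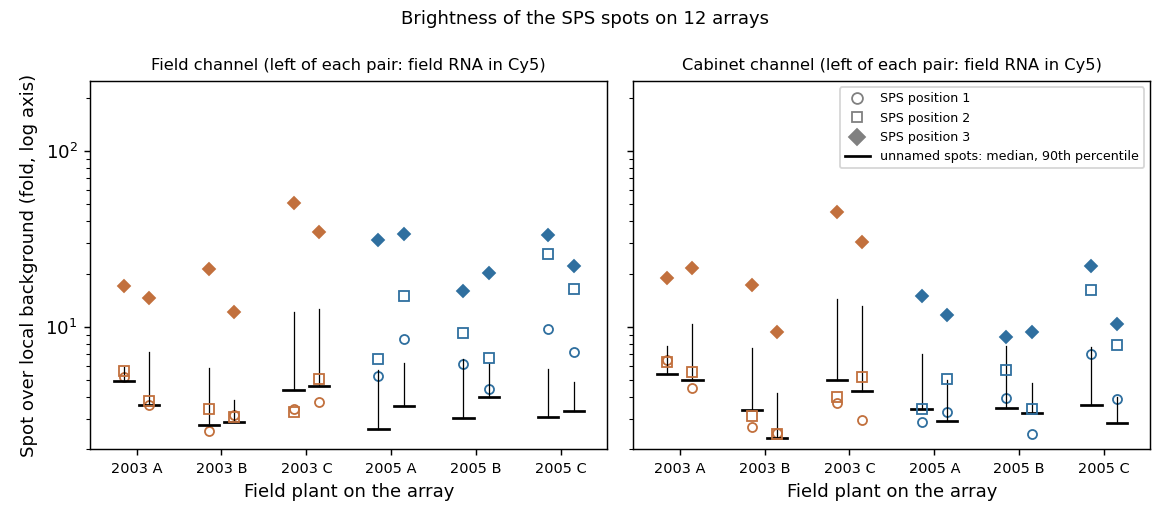
Signal over local background (log axis) of the 3 SPS positions on the 12 arrays, field channel on the left and cabinet channel on the right, 2 arrays for each plant, with the median of the 87 unnamed spots as a bar and a line up to their 90th percentile. Position 3 (filled) stands above that line on all 12 arrays, and positions 1 and 2 (open) stand above it on none of the 2003 arrays.

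At the bright position the field plants of both years lay above the cabinet. The log2 ratio at position 3 was 0.35 in plant A, 0.62 in plant B and 0.45 in plant C of 2003, a mean of 0.47 ± 0.14 (SD, n = 3), or 1.39-fold. In 2005 it was 1.12 in plant A, 1.29 in plant B and 0.90 in plant C, a mean of 1.10 ± 0.19 (SD, n = 3), or 2.15-fold. The years did not overlap here either. Plant B of 2003 was above 1.5-fold at this position, though not in the average over all spots.

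At the dim positions the plants of 2003 lay around the cabinet level and those of 2005 did not. In 2003 both positions were above the unnamed spots' 90th percentile on 0 of 6 arrays in either channel. A ratio near the cabinet level could therefore not be told from a lack of signal there. Position 1 gave 0.05, 0.33 and -0.03 in plants A, B and C of 2003 and 1.26, 1.31 and 0.94 in those of 2005. Position 2 gave 0.06, 0.36 and -0.22 in 2003 and 1.34, 1.30 and 1.13 in 2005. The means of 2003 were 0.12 ± 0.19 and 0.07 ± 0.29 and those of 2005 were 1.17 ± 0.20 and 1.26 ± 0.11 (SD, n = 3 each). The difference between the years was therefore larger where the spots were dim, 1.05 at position 1 and 1.19 at position 2. The part of spot brightness in this was not tested.

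Position 3 minus the mean of positions 1 and 2 was 0.30, 0.28 and 0.57 in plants A, B and C of 2003 and -0.18, -0.02 and -0.13 in those of 2005. Averaged over both dye orientations, the plants of 2003 thus had the higher ratio at the bright position and those of 2005 the lower one, a difference of -0.49 (2005 minus 2003). This contrast was chosen after its values were seen and was not tested. It held in 1 dye orientation only. With field RNA in Cy5 it was 0.68, 0.14 and 1.20 in plants A, B and C of 2003 and -0.38 in each plant of 2005, and the years differed by -1.05. With field RNA in Cy3 it was -0.09, 0.41 and -0.06 in 2003 and 0.02, 0.34 and 0.12 in 2005, and the years differed by 0.07. Averages over both years let the opposite signs of 2003 and 2005 cancel in part. The tests of position 3 against the other positions therefore cannot show that the positions agree. Position 3 minus position 1 was 0.15 ± 0.24 (SD, n = 6 plants) and above 0 in 3 of 6, with an exact sign-flip permutation p of 0.25, two-sided, and 0.5 after Benjamini-Hochberg adjustment over 4 tests. Position 3 minus position 2 was 0.13 ± 0.35 (SD, n = 6, exact permutation p = 0.375, adjusted 0.5), and position 2 minus position 1 was 0.02 ± 0.12 (SD, n = 6, exact permutation p = 0.562, adjusted 0.562). The smallest p that 6 plants allow is 0.0312. After adjustment over the 4 tests, none of them could therefore pass 0.05 unless several passed together.

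**Figure D3:**
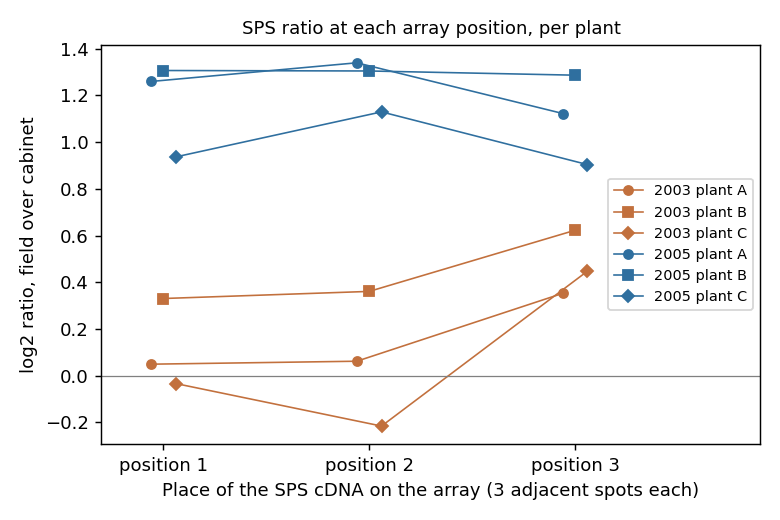
SPS log2 ratio of field over cabinet (y axis) at each of the 3 array positions (x axis), 1 line per plant, 2003 in orange and 2005 in blue. From the dim positions 1 and 2 to the bright position 3 the ratio is higher in all 3 plants of 2003 (by 0.28 to 0.57 over their mean), and lower in all 3 of 2005 (by 0.02 to 0.18). Values are means of both dye orientations, and the pattern is absent with field RNA in Cy3 alone.

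In 2003, but not in 2005, the 3 adjacent spots of a position agreed more closely where they were bright. The SD of their log2 ratios had a median of 0.05 over the 6 arrays of 2003 at position 3, against 0.25 at position 1 and 0.13 at position 2. In 2005 the medians were 0.04, 0.04 and 0.06 at positions 3, 1 and 2. These spots share a hybridization, so their SD holds no difference between plants.

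The channels were also placed on a common scale across arrays, on which the average intensity of each array has the same distribution. At position 3 the log2 level of SPS in the field channel was 12.04 ± 0.52 in 2003 and 11.96 ± 0.45 in 2005 (SD, n = 3 plants each). That of the cabinet channel was 11.57 ± 0.43 and 10.85 ± 0.61. The plants of the years overlapped in both channels, 11.45 to 12.37 against 11.44 to 12.25 for the field and 11.09 to 11.92 against 10.15 to 11.27 for the cabinet. At position 3 the year means thus differed by -0.09 in the field level and by -0.71 in the cabinet level (2005 minus 2003). At position 1 the year means differed by 1.95 in the field level and 0.90 in the cabinet level, and at position 2 by 2.80 and 1.61. All plants of 2005 lay above all plants of 2003 in the field channel of both dim positions and in the cabinet channel of position 2. A level set across arrays carries the spot size and scan of its year, which the ratio within an array shares between its channels, and the positions did not agree on the direction of the levels.

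Both dye orientations gave the same order of the years. On the arrays with field RNA in Cy5, the SPS log2 ratio was 0.15, 0.64 and -0.03 in plants A, B and C of 2003 and 1.32, 1.63 and 1.17 in those of 2005. With field RNA in Cy3 it was 0.16, 0.24 and 0.16 in 2003 and 1.16, 0.97 and 0.81 in 2005. The years did not overlap in either orientation. The ratio in Cy5 minus that in Cy3 was 0.23 ± 0.31 (SD, n = 6 plants) and above 0 in 4 of 6, with an exact two-sided sign-flip permutation p of 0.188, or 0.5 after adjustment over the same 4 tests. Like the position tests, this one could not pass alone after adjustment, so it cannot show that the dye orientations agree. All 3 plants of 2005 had the higher ratio with field RNA in Cy5, by 0.16, 0.66 and 0.36. The mean dye difference was larger than that of SPS in 31.7% of all cDNAs. Averaging both arrays of a plant cancels a dye difference of this kind.

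Among the 28 gene-named cDNAs SPS ranked second by mean ratio in 2005. Next above it was COR15, a cold-regulated chloroplast protein gene, with a log2 ratio of 2.89 ± 0.94 (SD, n = 3), and next below it was RAFL28-19G15, a name that gives no gene, with 1.16 ± 0.17 (SD, n = 3). SPS and RAFL28-19G15 differed in their means by less than the SD of either. At position 3 alone the SPS mean of 2005 was 1.10, below that of RAFL28-19G15. The cabinet channel of COR15 was above the 90th percentile of the unnamed spots on 0 of 12 arrays and that of RAFL28-19G15 on 2, so these ratios were taken against cabinet signals near the floor and are not exact. In 2003 SPS ranked 8 of 28, between ZAT12, a zinc finger factor of stress responses, at 0.23 ± 0.14, and BMF, a name without a known meaning, at 0.21 ± 0.06 (SD, n = 3 each). These neighbours of 2003 lay within the SD of SPS, and both were above the unnamed spots' 90th percentile on at most 2 of 12 arrays in either channel, so this rank orders mostly dim spots. In the difference between the years it ranked 3 of 28, below RAFL28-19G15 at 1.04 and above ZEP, the zeaxanthin epoxidase of abscisic acid (ABA) synthesis, at 0.60. This rank takes all 9 SPS spots. At position 3, the only SPS position above the floor in 2003, the difference was 0.63, close to that of ZEP.

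No other cDNA of the array could be assigned to sucrose metabolism, because no file links a clone name to a gene. The other 27 gene-named cDNAs were counted by list, with a call at a limma adjusted p under 0.05 (Benjamini-Hochberg over 4279 cDNAs) and at least 1.5-fold. Names were counted as spelled on the array. AA03 and AAO3, and DEHDRIN and DEHYDRIN, are therefore separate members, and the names may stand for fewer genes. In 2005, 31.5% of all cDNAs were called in either direction, 701 of 4279 higher and 648 lower. Of the 12 named for ABA, dehydration and cold response 3 rose and 0 fell, with a median log2 ratio of 0.03. The other 9 were above the unnamed spots' 90th percentile on at most 2 of 12 arrays in either channel, so that an unchanged transcript could not be told from one that was not detected. The 3 were COR15 (adjusted p = 0.00351), ZEP at 1.02 ± 0.19 (SD, n = 3, adjusted p = 0.0201) and RD20, a dehydration-induced calcium-binding protein gene, at 1.01 ± 0.25 (SD, n = 3, adjusted p = 0.0408). Of the 5 others named for stress and metabolism, listed with SPS, 0 of 5 were called in either year, with medians of 0.20 in 2003 and 0.04 in 2005. Of these 5 only PIP, named after an aquaporin, was above that percentile on more than 1 array, so a change in the other 4 was hardly detectable. Of 6 housekeeping cDNAs ACTIN2 fell in 2005, by 0.63 on the log2 scale (limma adjusted p = 0.0422), with a median over the 6 of -0.24, and RAFL28-19G15 was called among 4 names without a known meaning (adjusted p = 0.00351), whose median was 0.28. The median over all cDNAs was -0.03. Without any 1 plant of 2005 the calls of that year among these 27 numbered 2, COR15 and RAFL28-19G15. With print-tip loess RD20 and ACTIN2 lost theirs.

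In 2003, 17.4% of all cDNAs were called, 430 of 4279 higher and 313 lower. Of the 12 ABA, dehydration and cold cDNAs 1 rose. It was RD20, at 2.46 ± 0.84 (SD, n = 3, limma adjusted p = 0.00778), and the median of the 12 was 0.07. TUBULIN, a cytoskeletal gene, fell by 0.88 on the log2 scale (limma adjusted p = 0.03), as 1 of 6 housekeeping cDNAs with a median of -0.40, and FL5-2D23, 1 of the 4 names without a known meaning (median 0.17), rose at 1.59 ± 0.54 (SD, n = 3, limma adjusted p = 0.0208). The median over all cDNAs was 0.00. The cabinet channel of FL5-2D23 was above the unnamed spots' 90th percentile on 4 of 12 arrays, and so was the field channel of TUBULIN. Their ratios are therefore not exact. TUBULIN lost its call when plant B or C of 2003, or any 1 plant of 2005, was left out, and with median centring. FL5-2D23 lost its call when plant A or B of 2003 was left out, and with the median over spots. RD20 kept its 2003 call when each plant in turn was left out.

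In the difference between the years limma called 1.59% of all cDNAs and 0 of the 27 other gene-named ones. Before adjustment the limma p lay under 0.05 in 6 of these 27, against 1163 among the 4279 cDNAs of the whole array. The share among the 27 was thus not higher than that of the array. With the plant letter as a replicate block limma called 8.25% of all cDNAs and 3 of the 27. These were COR15 (2.13, adjusted p = 0.0473) and RAFL28-19G15 (1.04, adjusted p = 0.0438), higher in 2005, and FL5-2D23 (-1.31, adjusted p = 0.0388), lower in 2005. The log2 difference of SPS was 0.96 in both fits.

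**Figure D4:**
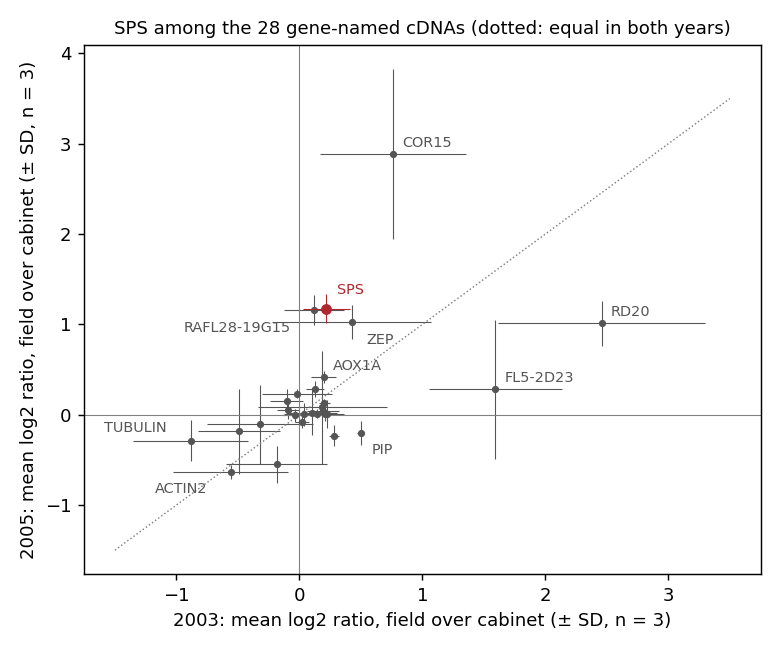
Mean log2 ratio of field over cabinet in 2003 (x axis) and 2005 (y axis) for the 28 gene-named cDNAs, with ± SD over 3 plants as bars and SPS in red. SPS stands at 0.22 in 2003 and 1.18 in 2005, next to RAFL28-19G15 at 0.12 and 1.16, and below COR15, which reaches 2.89 in 2005.

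The cDNAs most like SPS were found by the root mean square difference of their log2 ratios from those of SPS over the 6 plants, as a description with no test. Its median over all other cDNAs was 1.03, and 9 cDNAs lay within 0.2. The SPS ratios used here take all 9 spots, of which those at positions 1 and 2 read within the range of the unnamed spots in 2003. Likeness to position 3 alone is not given. Among gene-named cDNAs RAFL28-19G15 was nearest, at 0.19, with plants A, B and C at -0.15, 0.33 and 0.16 in 2003 and 0.98, 1.31 and 1.18 in 2005. Its largest departure from SPS was 0.30, in plant A of 2003, where it lay below the cabinet and SPS above. The cabinet channel of RAFL28-19G15 was above the unnamed spots' 90th percentile on 2 of 12 arrays.

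ZEP was the second nearest gene-named cDNA, at 0.41. Its plants read -0.32, 0.77 and 0.82 in 2003 and 0.89, 1.24 and 0.94 in 2005. In 2005 it lay below SPS in all 3 plants, and in 2003 it spread more widely than SPS. AOX1A, an alternative oxidase of mitochondria, was the third, at 0.56, with 0.08, 0.28 and 0.23 in 2003 and 0.36, 0.40 and 0.49 in 2005. It was less than 1.5-fold above the cabinet in each of the 6 plants, and its cabinet channel was above the unnamed spots' 90th percentile on 0 of 12 arrays. Of the clones, drt13_f07 at 0.14 and cld25_c04 at 0.14 were nearest. Their means were 0.35 ± 0.27 and 0.26 ± 0.23 in 2003 and 1.17 ± 0.24 and 1.09 ± 0.26 in 2005 (SD, n = 3 each). The files do not say which genes these clones carry. Ratios of different cDNAs share the same arrays and cabinet RNA.

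**Figure D5:**
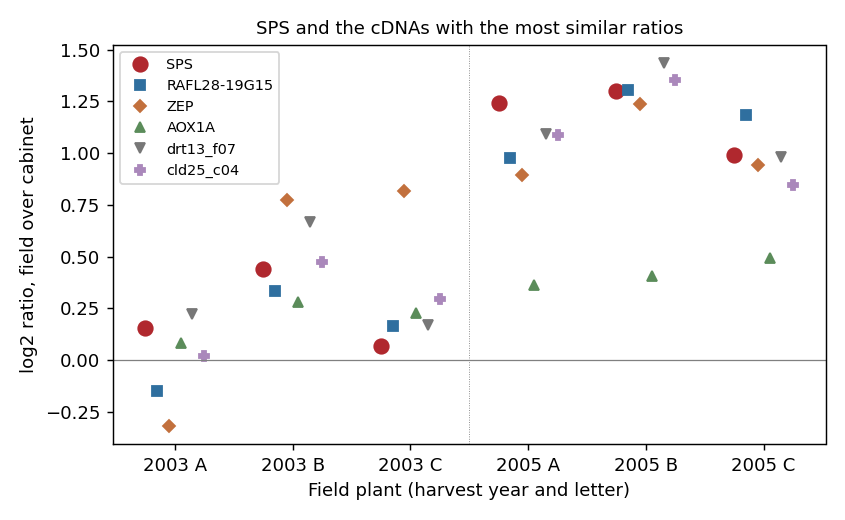
Log2 ratio of field over cabinet (y axis) in each of the 6 field plants (x axis) for SPS and the 5 cDNAs with the smallest root mean square difference from it, 3 gene-named and 2 clones. RAFL28-19G15 and both clones stay within 0.30 of SPS in every plant, while AOX1A stays at 0.36 to 0.49 in 2005, when SPS is at 0.99 to 1.30.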

How the data were processed

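The authors deposited a QuantArray table per array, which lists for either channel the linear intensity of every spot and the intensity around it, neither background-subtracted nor normalized. Channel 1 held cabinet RNA and channel 2 field RNA on all 12 arrays. A table of log10 values that the authors had processed was deposited too. The sources used here do not give its normalization. Its columns correlated with the ratios computed here at 0.972 to 0.996 and had medians of -0.0188 to 0.0126, so they run as field over cabinet and are centred near 0. They entered as an alternative, after conversion to log2. The study's own model for calling changed genes was not repeated.

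Analysis used limma 3.58.1 (R 4.3.3). Intensities were background-corrected (normexp, offset 50), and each array was then normalized by a loess curve of the log2 ratio in which control and unnamed spots had weight 0. Values were averaged over the spots of a cDNA and then over both arrays of a plant. The 6 plants were fitted with year means and a shared spread per cDNA, with 4 residual and 2.66 prior degrees of freedom. Channel levels were set with limma's Aquantile normalization. The number of arrays limits the precision, and the median signal over background of an array was 7.93 to 34.3.

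Plants of different years share letters. Same-letter deviations from the year means correlated across cDNAs at 0.58 (A), 0.24 (B) and 0.31 (C), and different-letter ones at -0.33 to 0.05. The labels do not explain this pairing. The main fit did not use the letters, and the fit with the letter as a replicate block was run as an alternative.

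SPS was named in full. Others named are the called gene-named cDNAs, the neighbours of SPS in each order, and the 3 gene-named cDNAs and 2 clones most like it. SPS, the lists and the tests were chosen with earlier results of these data known. Gene names are those on the array.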

Additional observations from a re-analysis of the deposited data

Results flagged for a closer look

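In SPS, the ratio at the bright position 3 against the mean of the dim positions 1 and 2 ran one way in 3 of 3 plants of 2003 and the other way in 3 of 3 plants of 2005, a difference of -0.49 on the log2 scale that was not tested. It was -1.05 with field RNA in Cy5 and 0.07 with field RNA in Cy3, where all 3 plants of 2005 lay above 0. Without background subtraction the 2005 mean of this contrast was 0.06 instead of -0.11. With median centring its 2003 mean was 0.09 instead of 0.38, and from the deposited processed values it was 0.14.

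Of the 28 gene-named cDNAs, 3 lay on one side of the cabinet in 3 of 3 plants of 2003 and on the other side in 3 of 3 plants of 2005, as did 305 of all 4279 cDNAs (7.13%). PIP, named after a plasma membrane aquaporin and listed with SPS, had log2 ratios of 0.47, 0.52 and 0.51 in 2003 and -0.31, -0.05 and -0.23 in 2005, a difference of -0.70 (limma adjusted p = 0.0736). RAV1 had a difference of -0.51 (limma adjusted p = 0.132) and CBF one of 0.25 (limma adjusted p = 0.415), and neither was above the unnamed spots' 90th percentile on any of the 12 arrays in either channel.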

How the results depend on the processing

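The SPS ratio kept its sign in 2003, in 2005 and in their difference under each alternative run. The 2003 ratio was 0.47 from position 3 alone. The 2005 ratio was 0.99 without background subtraction, and 1.37 or 0.98 from the arrays with field RNA in Cy5 or Cy3 only. The difference was 0.76 with median centring and 1.19 or 0.63 from position 2 or 3 alone. Leaving out 1 plant gave 0.11 to 0.30 for 2003, 1.11 to 1.27 for 2005 and 0.88 to 1.07 for the difference. The dye difference stayed positive. It did not pass, which the exact test could not do with 5 plants, nor with 6 unless several of the 4 tests passed together. The largest position difference, position 3 minus position 1, was -0.0093 with median centring, and that of position 3 against both others in 2005 was 0.0555 without background subtraction and 0.16 with field RNA in Cy3 only. The causes were not tested. Leaving out dim spots (below background plus 2 SD in both channels) removed 0 spots and so changed nothing.

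Calls among the 27 other gene-named cDNAs in 2005 fell from 5 to 3 with print-tip loess and to 2 to 5 without 1 plant, and those of 2003 numbered 2 to 4. Calls in the difference between the years were 0, but 1 without background subtraction, with arrays scaled, from the deposited values, or with scan day as a random block, 0 to 1 without 1 plant, 3 with the plant letter as a replicate block, and 6 with 12 arrays as independent replicates. The block changed no count in either year alone. Of all cDNAs, 1.59% were called in the difference by the main fit and 8.25% with the block. For the other settings the share of all cDNAs is not given here, so their counts are no result about the 27. The 3 plants a year and, in 2003, signals of 6 of 9 SPS spots near those of the unnamed spots limit the precision. The normexp setting without an offset and the position contrast against both others were chosen after seeing the data.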
